A study of Rattus norvegicus with 12 samples.

Results

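The genes described here build, cut and bind the extracellular matrix: collagens, laminins, lecticans and other matrix glycoproteins, the matrix metalloproteinases with their TIMP inhibitors, the ADAMTS family, and the integrins. They were chosen by symbol alone. Every probe set whose single gene symbol begins with Col, Timp, Mmp, Itga or Itgb and a digit, with Lama, Lamb or Lamc, or with Adamts, or is Fn1, Sparc, Sparcl1, Tnc, Tnr, Bcan, Ncan, Vcan or Spp1, was taken. That gave 80 genes with 113 probe sets, of 10412 genes and 15923 probe sets on the array. Their signals were set side by side in rat hippocampus after KA or PBS under 2 kinds of housing. By symbol alone the rule also took Itgb1bp1, Itgb1bp2 and Itgb3bp, which are binding proteins inside the cell rather than matrix proteins or receptors.

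Matrix proteins form the basement membrane around brain vessels, the meninges over the surface of the tissue, and a loose mesh of hyaluronan, lecticans and tenascins between neurons and glia. Part of that mesh condenses into perineuronal nets around some neurons. Metalloproteinases cut these proteins, TIMPs block the metalloproteinases, and integrins are the receptors that tie cells to collagens, laminins and fibronectin. Several members, among them Timp1, Mmp9, Spp1 and Tnc, are known for rising in the hippocampus after strong seizures.

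RNA of 12 hippocampal samples was measured on single-colour oligonucleotide arrays, with 3 samples in each of 4 groups. The rats received PBS, the saline vehicle, or KA, read here as kainic acid because the series concerns seizures, on postnatal day 20. The PBS isolated and KA isolated groups were kept 1 to a cage for the 10 days before sacrifice. The PBS enriched and KA enriched groups lived 8 to a large cage; the sources used here give no duration for that housing. Hippocampi of 3 to 4 animals went into each sample, called a pool here, and whether pools shared a litter or cage is not stated. What the p-values measure is thus the variation from pool to pool. No group had ordinary group housing, so enrichment cannot be told apart from the absence of isolation. The strain and sex of the animals are not given in the sources used here. Across the 12 arrays the median signal lay between 70.1 and 74.1, and array pairs correlated at 0.971 to 0.99. Prox1, a marker of dentate granule neurons, had signals of 225 to 253 in every pool.

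The promoters of 4 members are shown because the results turn on their signals: Sparc, Timp2 and Timp3 each had a probe set that was higher in every KA isolated pool than in every PBS isolated pool, and Col1a2 followed the meningeal markers. Tnr was also higher in every KA isolated pool than in every PBS isolated pool, but its promoter is not shown. Nor are those of Col1a1 and Col3a1, which followed the meningeal markers too. Each sequence shown is the 250 bases before the gene start in RefSeq's GRCr8 table, which holds entries for 64 of the 80 genes. The Col1a2 sequence is chr4:33518307-33518556 on the plus strand. The other 3 lie on the minus strand, Sparc at chr10:40038817-40039066, Timp2 at chr10:104089215-104089464 and Timp3 at chr7:19459559-19459808. Capitals mark exact matches, on either strand, to the letters CCAAT of the CCAAT box, TATAAA of the TATA box, GGGCGG of the GC box and TGANTCA of the AP-1 site.
Col1a2: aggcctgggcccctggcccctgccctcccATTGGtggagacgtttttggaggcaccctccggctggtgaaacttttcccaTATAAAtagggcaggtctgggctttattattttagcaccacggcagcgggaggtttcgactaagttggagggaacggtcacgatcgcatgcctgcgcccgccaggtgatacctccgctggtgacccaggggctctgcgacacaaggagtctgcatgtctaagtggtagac
Sparc: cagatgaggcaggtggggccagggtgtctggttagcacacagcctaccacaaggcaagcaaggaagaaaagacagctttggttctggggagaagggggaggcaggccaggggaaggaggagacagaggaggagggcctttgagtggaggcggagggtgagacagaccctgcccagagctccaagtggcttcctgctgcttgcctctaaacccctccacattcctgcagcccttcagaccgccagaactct
Timp2: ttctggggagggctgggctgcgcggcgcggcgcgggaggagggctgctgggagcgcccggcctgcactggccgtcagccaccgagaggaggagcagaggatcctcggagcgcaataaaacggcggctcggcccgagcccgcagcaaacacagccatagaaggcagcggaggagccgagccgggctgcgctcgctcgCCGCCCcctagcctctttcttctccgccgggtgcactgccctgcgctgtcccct
Timp3: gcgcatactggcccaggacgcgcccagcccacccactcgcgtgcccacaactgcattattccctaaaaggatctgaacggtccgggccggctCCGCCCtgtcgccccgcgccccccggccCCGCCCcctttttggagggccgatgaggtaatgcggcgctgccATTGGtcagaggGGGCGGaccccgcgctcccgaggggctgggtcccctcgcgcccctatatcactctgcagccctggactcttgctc

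Read 5′ to 3′, the Col1a2 promoter held CCAAT on the reverse strand 221 bases before the start and TATAAA 170 bases before it. Timp3 held a reverse CCAAT at 87 bases and GC boxes at 158, 130 and 75 bases. Timp2 held 1 GC box at 54 bases. The Sparc window held none of the 4 motifs, and none of the matches shown overlapped another. Among the 33469 promoters of the table, 34% held CCAAT, 12.9% TATAAA, 30.5% the GC box and 6.34% the AP-1 letters. Over the 65 promoters of the matrix, protease and integrin genes these shares were 27.7%, 23.1%, 49.2% and 10.8%. These are matches of letters and were not set against binding data.

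Of the 113 probe sets, 50, from 36 genes, were among the 60% of non-control probe sets with the highest mean log2 signal, which were tested. No matrix, protease or integrin probe set passed an adjusted p of 0.05 in any of the 7 comparisons, nor in the test for any difference between the 4 groups. Few probe sets passed anywhere. Of the 9520 tested, 0.0105% passed for KA in isolated rats, 0% for KA in enriched rats and 0.0105% for KA over both housings. For housing the shares were 0.0105% after PBS, 0% after KA and 0.021% over both treatments. The interaction of KA and housing had 0% and the test across the 4 groups 0.0105%. The lowest adjusted p of a member was 0.684, for Vcan after KA between housings (limma with Benjamini-Hochberg adjustment over all 9520). In the test across the 4 groups it was 0.953.

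The members lay near 0 as a group in each comparison. Their median log2 difference was 0.01 for KA in isolated rats, beside -0.0053 over all tested probe sets, and 27 of 50 were higher. For KA in enriched rats the median was 0.02 beside -0.0033, with 28 of 50 higher. Between housings it was -0.01 beside 0.0026 after PBS, with 23 of 50 higher in enriched rats, and -0.0057 beside 0.0030 after KA, with 24 of 50 higher. The intervals of single probe sets left room for modest changes. The median 95% interval of a member reached 0.26 log2 units to either side in comparisons of 3 against 3 pools, a 1.19-fold difference, against 0.21 over all probe sets. The residual SD of the members had a median of 0.16 log2 units, against 0.12 over all.

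**Figure D1:**
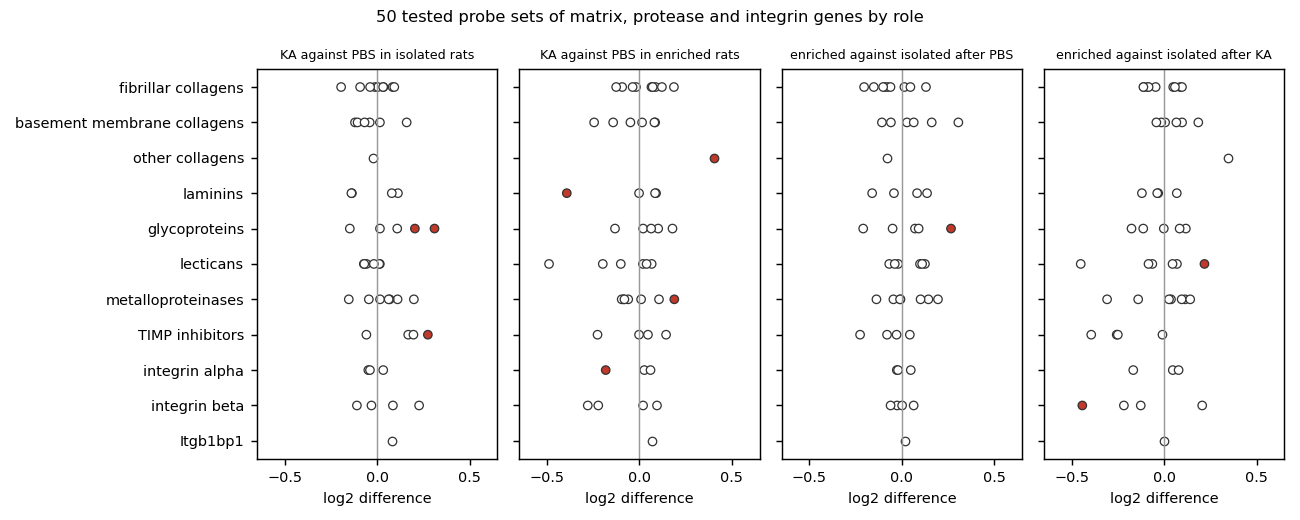
Log2 differences of the 50 tested probe sets, 1 circle each, by role and for 4 comparisons, with higher values to the right of the line at 0. Filled circles had an unadjusted p under 0.05; none passed after adjustment, and no role with more than 1 probe set lay wholly to one side in all 4 panels.

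At an unadjusted p under 0.05, KA in isolated rats had 3 members higher and 0 lower, that is 6% and 0% of 50, beside 2.01% and 2.3% of all tested probe sets. The 3 were Tnr, Timp2 and Sparc. A count by overlap gave 4 members with every KA isolated pool above every PBS isolated pool and 0 the other way, 8% and 0%, beside 5.19% and 5.62% over all. The fourth was Timp3. Background shares of 2.01% and 5.19% correspond to about 1 and 3 of 50 probe sets. The lowest p among the lower values belonged to Col5a1 (-0.19), Mmp24 1372422_at (-0.15) and Lamc1 1370993_at (-0.14), at limma unadjusted p = 0.13, 0.23 and 0.25.

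Tnr encodes tenascin-R, a glycoprotein of perineuronal nets made by oligodendrocytes and some neurons. Its gene spans chr13:74285141-74706174 in GRCr8. Probe set 1369692_at read 105, 95 and 107 in the PBS isolated pools and 143, 127 and 123 in the KA isolated pools. The PBS enriched pools read 138, 125 and 117, and the KA enriched pools 121, 125 and 97.5. PBS isolated pools were thus the low group: both the KA isolated and the PBS enriched pools lay wholly above them, while the KA enriched pools overlapped. The log2 difference for KA in isolated rats was 0.31 (SE 0.096, limma unadjusted p = 0.0065, adjusted p = 0.9989), and for housing after PBS 0.27 (SE 0.096, limma unadjusted p = 0.016, adjusted p = 0.998). Both share the PBS isolated pools. In enriched rats the KA difference was -0.13, and the interaction was -0.44 (SE 0.14, limma unadjusted p = 0.0062, adjusted p = 0.91). Tnr also had the lowest p of the members across the 4 groups (limma unadjusted p = 0.027, adjusted p = 0.953).

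Timp2 and Timp3 are inhibitors of metalloproteinases, the first secreted and the second bound to the matrix. Timp2 lies at chr10:104041604-104089214. Its probe set 1367823_at read 172, 138 and 179 in PBS isolated pools and 206, 194 and 199 in KA isolated pools, which did not overlap. The log2 difference was 0.27 (SE 0.12, limma unadjusted p = 0.038, adjusted p = 0.9989). In enriched rats the probe set read 143, 164 and 170 after PBS and 160, 139 and 199 after KA, which did overlap. The other Timp2 probe set, 1386940_at, read 423, 356 and 299 against 389, 430 and 388 in isolated rats, an overlap, with a log2 difference of 0.17. Its enriched pools read 289, 396 and 331 after PBS and 338, 331 and 336 after KA, the latter below all KA isolated pools. Over both housings the KA difference of 1367823_at was 0.16. Between housings after KA, both Timp2 probe sets were lower in enriched rats, by a log2 difference of -0.26 and -0.25 (limma unadjusted p = 0.050 and 0.061, adjusted p = 0.705 and 0.717).

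Timp3 lies at chr7:19408539-19459558. Probe set 1389836_a_at read 229, 224 and 227 in PBS isolated and 244, 264 and 280 in KA isolated pools, without overlap, a log2 difference of 0.20 (SE 0.091, limma unadjusted p = 0.051). Its enriched pools read 204, 236 and 266 after PBS and 248, 277 and 256 after KA. The KA difference in enriched rats was 0.14, and over both housings 0.17 (limma unadjusted p = 0.020, adjusted p = 0.996). The other tested Timp3 probe set did not share this: 1375138_at read 262, 228 and 209 in PBS isolated and 215, 220 and 231 in KA isolated pools. Across the 12 pools the Timp3 sets correlated at -0.14.

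Sparc is a secreted glycoprotein that binds collagen, at chr10:40017065-40038816. Probe set 1367562_at read 747, 795 and 702 in PBS isolated pools and 917, 844 and 831 in KA isolated pools. All KA isolated pools were the higher, and the log2 difference was 0.20 (SE 0.090, limma unadjusted p = 0.042, adjusted p = 0.9989). In enriched rats it read 740, 826 and 794 after PBS and 762, 733 and 906 after KA, with a difference of 0.02. The other set, 1367563_at, overlapped in isolated rats at 595, 478 and 529 against 551, 572 and 603. Sparcl1, a relative of Sparc made by astrocytes, ranged from 3120 to 3521 over all 12 pools, with a KA difference in isolated rats of 0.02 (95% interval -0.13 to 0.16).

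**Figure D2:**
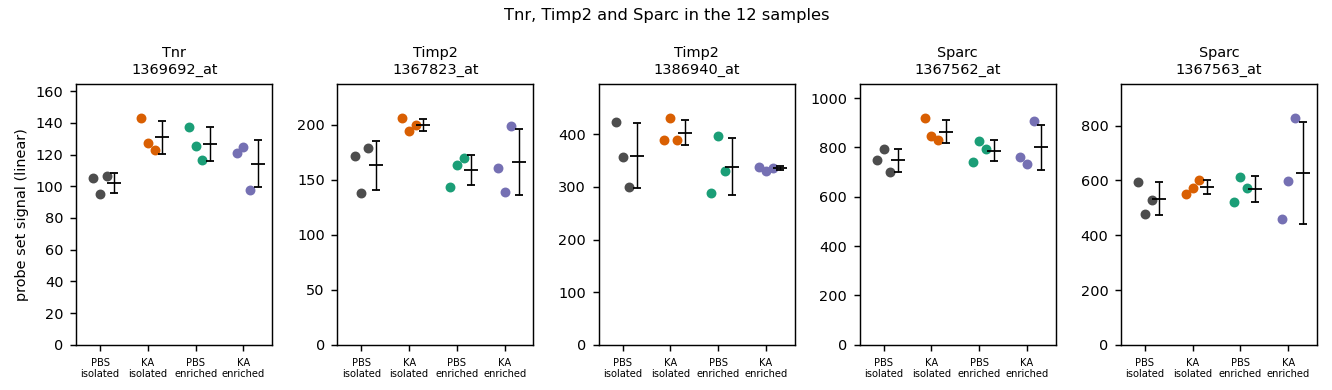
Linear signal of Tnr, Timp2 and Sparc probe sets in each pool (points) by group, with the mean and SD (n = 3 pools) beside them. Tnr 1369692_at, Timp2 1367823_at and Sparc 1367562_at were higher in all KA isolated than in all PBS isolated pools, whereas Timp2 1386940_at and Sparc 1367563_at overlapped.

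Markers of microglia and macrophages were read beside these members. The summed signal of the 19 marker genes on the array, with the brightest probe set for each gene, was 2275 to 2396 in PBS isolated pools and 3115 to 3694 in KA isolated pools. Of these genes 15 were tested, and all 15 were higher. At an unadjusted limma p under 0.05 there were 12, beside 2.01% of all tested probe sets, and 0 passed after adjustment. The list was chosen with earlier results of these data known, so these counts are no separate evidence. Defining markers were present, with C1qa between 140 and 319 in all pools. Among enriched pools the sum was high in PBS enriched pool 2 (3383) and KA enriched pool 3 (3349) and 2098 to 2409 in the others. In those same pools Sparc 1367562_at read 826 and 906, above the other enriched pools of its treatment, but the other members did not all follow. Tnr read 125 and 97.5 there, the latter its lowest enriched value, and Timp3 1389836_a_at read 236 and 256, under 266 and 277 in another pool of the same group. Timp2 1367823_at read 164, under 170 in PBS enriched pool 3, and 199, the highest of its KA enriched pools. Astrocyte markers summed to 11140 to 12180 in PBS isolated and 12210 to 13030 in KA isolated pools, with Gfap at 1774 to 2142 and 2051 to 2611. Bright genes weigh most in such a sum. Of the 10 astrocyte markers tested, 7 were higher, with a median log2 difference of 0.049. Only 1, Gfap, had an unadjusted limma p under 0.05, and 0 passed after adjustment. The part of these cell types in the Sparc, Timp2, Timp3 and Tnr values was not tested. In pooled tissue, fewer cells of a type and less RNA per cell cannot be told apart.

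In enriched rats 2 members were higher and 2 lower after KA at an unadjusted p under 0.05, 4% each, beside 2.74% and 2.24% of all. By overlap 2 were wholly higher and 3 wholly lower, beside 5% and 4.62%. These shares lay close to the background. Over both housings 2 members, Timp3 and Mmp17, were higher and 1, Lamb1, lower, beside 2.1% and 2.21%, and no member separated all 6 KA pools from all 6 PBS pools, beside 0.0315% higher and 0.0735% lower.

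Lamb1, the laminin beta chain of many basement membranes (chr6:53562849-53630118), had the lowest p in enriched rats. It read 84.4, 98 and 95.8 after PBS and 76.3, 64.9 and 59 after KA, with all KA pools lower. The log2 difference was -0.39 (SE 0.13, limma unadjusted p = 0.0087, adjusted p = 0.933). In isolated rats it read 95, 91.8 and 64.3 after PBS and 68.4, 67.6 and 86.3 after KA, which overlapped. Over both housings Lamb1 differed by -0.26 (limma unadjusted p = 0.012, adjusted p = 0.996), and across the 4 groups the limma unadjusted p was 0.045.

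The other laminins tested were Lamb2 and Lamc1, a beta and a gamma chain. Lamb2 ranged from 43.9 to 66.3 over the 12 pools. The Lamc1 probe sets ranged from 45.1 to 70.6 and from 98 to 134, and none of these separated the groups in any comparison. All alpha chains measured, Lama1 to Lama5, were too dim to be tested.

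Col6a1, a chain of the beaded-filament collagen VI, had a difference of opposite sign in enriched rats. It read 54.7, 75.1 and 65 after PBS and 97.7, 75.4 and 101 after KA, a log2 difference of 0.40 (SE 0.17, limma unadjusted p = 0.030, adjusted p = 0.933). The groups did not overlap, but their nearest pools read 75.4 and 75.1. Isolated pools read 83.4, 79.7 and 49.2 after PBS and 58.1, 63.2 and 85.2 after KA, where the difference was -0.02. Col6a2 and Col6a3, the partner chains, were too dim to be tested.

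Mmp17, a metalloproteinase anchored to the cell membrane, read 330, 343 and 340 in PBS enriched and 359, 387 and 417 in KA enriched pools, without overlap. The log2 difference was 0.19 (SE 0.082, limma unadjusted p = 0.039, adjusted p = 0.933). In isolated rats it read 328, 343 and 349 against 337, 338 and 399, an overlap. Itga6, the alpha subunit of laminin receptors, read 108, 101 and 94.6 after PBS and 82.9, 90.9 and 88 after KA in enriched rats, all lower, with a difference of -0.18 (limma unadjusted p = 0.046). Col4a2, a collagen IV chain of vessel basement membranes, read 246, 194 and 191 against 168, 173 and 181 in the same groups, all lower, with a difference of -0.25 (limma unadjusted p = 0.082, adjusted p = 0.933) and of -0.16 over both housings. The 16 endothelial and mural markers on the array summed to 1728 to 1850 in PBS enriched and 1633 to 1688 in KA enriched pools. Bright genes weigh most in this sum too. Of the 10 tested, 2 were higher after KA, with a median log2 difference of -0.063. In either direction 0 had an unadjusted limma p under 0.05, and 0 passed after adjustment. The part of these cells in the values of the basement membrane genes was not tested. Pecam1 was dim, at 16.3 to 45.3.

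Between housings after PBS, 1 member was higher in enriched rats and 0 lower at an unadjusted p under 0.05, beside 2.15% and 2.06%. By overlap the counts were also 1 and 0, beside 5.49% and 6.11%. That member was Tnr. The next lowest p values belonged to Mmp24, with one of its 3 tested probe sets higher by 0.20, and to Fn1, fibronectin, at -0.21 (limma unadjusted p = 0.12 and 0.16). Mmp16 (0.14), Lamc1 1370993_at (-0.16) and Col5a2 1373463_at (-0.10) followed. Fn1 read 129, 96.9 and 137 in PBS isolated and 90.8, 97.1 and 118 in PBS enriched pools, which overlapped.

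Between housings after KA, 1 member was higher and 1 lower, 2% each, beside 4.08% and 2.94% of all. By overlap there were also 1 and 1, beside 6.28% and 4.53%. Vcan, versican, a lectican of the loose matrix, was the higher one: probe set 1388142_at read 52.6, 42.7 and 53.4 in KA isolated and 54.5, 58 and 68.8 in KA enriched pools. Its log2 difference was 0.22 (SE 0.093, limma unadjusted p = 0.036, adjusted p = 0.684). Itgb1, the beta subunit shared by most matrix-binding integrins, was the lower one by p, at -0.44 (SE 0.20, limma unadjusted p = 0.047, adjusted p = 0.703). Its set 1368819_at read 221, 193 and 176 in KA isolated and 154, 87.1 and 198 in KA enriched pools, which overlapped. Without KA enriched pool 2, which read 87.1, the difference was -0.15. The other Itgb1 set, 1387346_at, was also lower on average in enriched rats after KA, with overlap. Its lowest reading, 74.4, came from the same KA enriched pool 2, and its highest, 123, from KA isolated pool 3. This set is named by rule for a different comparison, KA against PBS over both housings, where it differed by -0.13. That KA difference is no check on the housing difference of 1368819_at.

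Over both treatments, 1 member was higher in enriched rats and 0 lower, beside 3.31% and 2.33% of all, and none separated 6 pools from 6, beside 0.189% and 0.116%. For the interaction of KA and housing, 0 members were positive and 1 negative, beside 2.88% and 2.09%. The first was Vcan 1388142_at, at 0.16, followed by Col4a1 1372439_at at 0.12 and Itgb4 at 0.10; the Timp2 sets were at -0.17 and -0.14. The second was Tnr. The interaction was also -0.28 for Mmp16, -0.22 for Itga6, 0.42 for Col6a1, 0.33 for Fn1 and 0.20 for Itgb4, each with a limma unadjusted p over 0.05. In the test across the 4 groups 2 members, 4%, had an unadjusted p under 0.05, beside 4.95%.

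Vcan aside, the other lecticans, Bcan and Ncan, had overlapping groups in each comparison. Bcan, brevican, a lectican of astrocytes and perineuronal nets, read 950, 936 and 1067 in PBS isolated and 1046, 907 and 1031 in KA isolated pools with set 1387934_at. Its enriched pools read 896, 888 and 1033 after PBS and 960, 922 and 965 after KA. All 4 groups overlapped, and the KA difference in isolated rats was 0.01 with a 95% interval of -0.17 to 0.20. The second Bcan set ranged from 84.1 to 128. Ncan, neurocan, ranged from 40.8 to 67.2, also with overlap among the groups.

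Among the tested metalloproteinases, Mmp14 and Mmp16 are membrane-anchored and Mmp2 is the secreted gelatinase A. Mmp14 read 113, 107 and 71.3 in PBS isolated, 94.7, 119 and 101 in KA isolated, 77.8, 83.2 and 95.5 in PBS enriched and 66.6, 72.8 and 108 in KA enriched pools. Enriched against isolated over both treatments, its log2 difference was -0.22 (limma unadjusted p = 0.076, adjusted p = 0.876), with overlap. Mmp2 ranged from 43.9 to 66.4 and Mmp16 from 87.3 to 121. The 3 Mmp24 sets, for another membrane-anchored enzyme, ranged from 65.4 to 113, 92.5 to 135 and 337 to 427.

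The other integrins tested were Itga3 (99.6 to 131 over the 12 pools), Itga7 (106 to 140), Itgb4 (42.9 to 68.7) and Itgb5 (58.3 to 86.4). Itga3 and Itga7 pair with the beta subunit of Itgb1, and Itgb4 pairs with Itga6. Between housings after KA, Itgb4 differed by 0.21 and, among the collagens, Col4a1 1372439_at by 0.18 (limma unadjusted p = 0.057 and 0.059, adjusted p = 0.716 for both). Itgb1bp1 ranged from 153 to 184. None of these separated isolated from enriched pools or KA from PBS pools.

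The fibrillar collagens of type I and III, made chiefly by fibroblasts and abundant in the meninges, varied more between pools of a group, as pooled over the 4 groups, than most tested members. Col1a2 (chr4:33518557-33553484), set 1370155_at, read 106, 73.1 and 96.7 in PBS isolated and 85, 81.6 and 135 in KA isolated pools. Enriched pools read 45.1, 67.5 and 140 after PBS and 96.6, 64.3 and 115 after KA. The PBS enriched group alone spanned the whole range, from 45.1 to 140, a 3.11-fold span. Col3a1 (chr9:54866646-54902578) spanned 70.9 to 128, and Col1a1 (chr10:80380458-80397461) 69.3 to 162 with set 1388116_at. The residual SD of their 5 tested sets ran from 0.24 for Col3a1 to 0.44 log2 units for this Col1a2 set, against a median of 0.16 over the tested members.

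These values rose and fell with markers of the meninges. The score, the mean centred log2 signal of 10 tested meningeal and fibroblast genes that are not members, ran from -0.35 in PBS enriched pool 1 to 0.25 in KA isolated pool 3. Over the 12 pools it correlated with Col3a1 at r = 0.964 and rho = 0.979 (permutation test with 100000 resamples, both p = 1e-05, the smallest these can give; adjusted p = 0.0005 for both over 50 members). Col1a2 1370155_at had r = 0.941 and rho = 0.909 (permutation p = 2e-05 and 4e-05, adjusted p = 0.0005 and 0.001). Col1a1 1388116_at had r = 0.938 and rho = 0.881 (permutation p = 3e-05 and 0.00027, adjusted p = 0.0005 and 0.0045). These were the 3 highest of 50 relations, whose median r was 0.18.

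The second Col1a1 set, 1370864_at, had r = 0.762 and rho = 0.797 (permutation p = 0.0038 and 0.003, adjusted p = 0.0475 and 0.0375). The second Col1a2 set, 1387854_at, had r = 0.683 and rho = 0.643 (permutation p = 0.0144 and 0.028, adjusted p = 0.144 and 0.213) and did not pass. In all, 4 of 50 probe sets passed on both measures. The score was not set against the tested probe sets outside the members, so no background share stands beside this count. Whether the relation is particular to these collagens was not tested. Without the 2 pools farthest from the median score, PBS enriched pool 1 and KA isolated pool 3, r was 0.941 for Col3a1, 0.877 and 0.616 for the Col1a2 sets, and 0.893 and 0.756 for the Col1a1 sets. Taken as deviations from the group means, r was 0.962 for Col3a1, 0.954 for Col1a2 1370155_at and 0.963 for Col1a1 1388116_at. The relation thus lay between pools of the same group.

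The 5 probe sets of these 3 collagens correlated with one another at 0.639 to 0.975 over the 10 pairs, which include the pairs of one gene. The summed signal of the 13 meningeal and fibroblast genes on the array was 2463 to 3456 in PBS isolated, 2706 to 3304 in KA isolated, 1843 to 3201 in PBS enriched and 2062 to 3081 in KA enriched pools. All groups overlapped in it. Dcn, decorin, a defining fibroblast marker, ranged from 88.8 to 191 and followed the score at r = 0.81, as 1 of the genes in it. Pdgfra and Islr, also in the score, did not follow it, at r = -0.16 and 0.17. How much meningeal tissue each pool held was not tested.

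**Figure D3:**
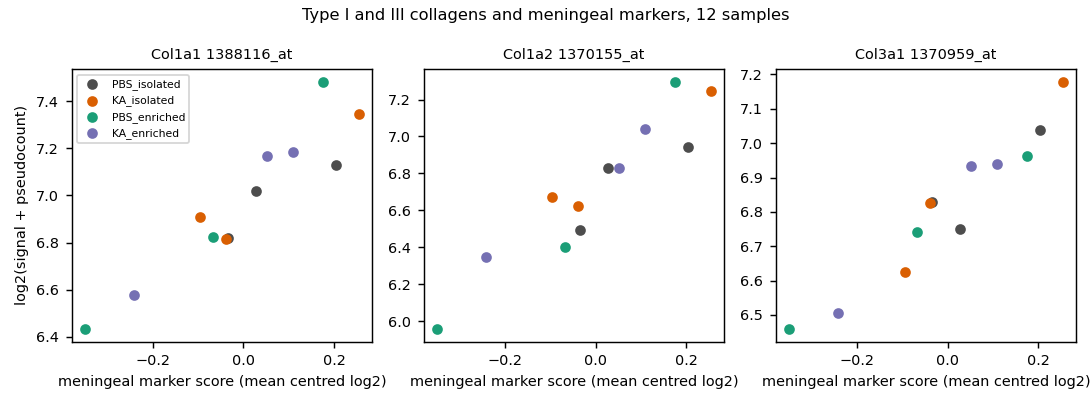
Log2 signal of Col1a1 1388116_at, Col1a2 1370155_at and Col3a1 against the meningeal marker score, 1 point for each of the 12 pools, coloured by group. The points rise together (r = 0.938, 0.941 and 0.964), and each group's pools are spread along the line.

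The other tested sets of fibrillar collagens had ranges of at most 1.55-fold over the 12 pools. Col5a1 1376099_at ranged from 54.3 to 81.2 and Col5a2 from 75.1 to 112 and 66.5 to 90.1 with its 2 sets; both chains belong to collagen V, which assembles with type I. Col11a2 ranged from 57.2 to 88.5. Dim sets spanned more, such as 18.7 to 60.8 for Col5a1 1369955_at. Of the basement membrane collagens, the Col4a1 sets ranged from 79.1 to 114 and 91.7 to 126, Col4a5 from 97.1 to 135, and Col18a1, the source of endostatin, from 34.4 to 60.3. Col15a1, a collagen of vessel walls, read 19.7 in PBS isolated pool 1 and 53.4 to 88.1 in the other pools. That pool also had the highest signal of Ttr, transthyretin, a marker of the choroid plexus, at 2719 against 87.2 to 683 elsewhere. Whether the readings are related was not tested.

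Several genes were measured by more than 1 tested probe set, and the signs of their differences were compared. Of 12 such genes, 0 had the same sign of the difference in all sets over all 7 comparisons; the median was 3 of 7 comparisons, and the range 0 to 6. Timp2, with 6 of 7, was the most alike. The 7 comparisons share the same 4 group means, and none of these differences passed. No share expected by chance was worked out, so these counts cannot tell whether sets of a gene disagree. The Col1a1 sets correlated at 0.78 over the 12 pools, the Timp2 sets at 0.44 and the Sparc sets at 0.49, but the Bcan sets at -0.00065. Sets can read different parts or forms of a transcript, and their positions were not analysed here.

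KA enriched pool 3 held the lowest or highest reading of many tested sets. Among them were the highest of Sparc 1367563_at (827), Lamb2 (66.3) and Bcan 1369831_at (128), and the lowest of Ncan (40.8). Timp3 1375138_at read 79.8 there and 180 to 262 in the other 11 pools, while Timp3 1389836_a_at read 256. Vcan 1371232_a_at read 8.77 there and 46.5 to 71.2 elsewhere, Vcan 1388054_a_at read 52.6, within its range of 51.1 to 75.8, and Vcan 1388142_at read 68.8, its highest. The same pool held the lowest Lamb1 (59) and the highest Mmp17 (417) and Col6a1 (101) signals of the 12, but not the extremes of Itga6 or Col4a2. This pool had the highest log2 ratio of 3′ to 5′ control probe sets for beta-actin (0.856), GAPDH (0.25) and hexokinase (1.60) of the 12 arrays. The part of RNA quality in these readings was not tested.

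**Figure D4:**
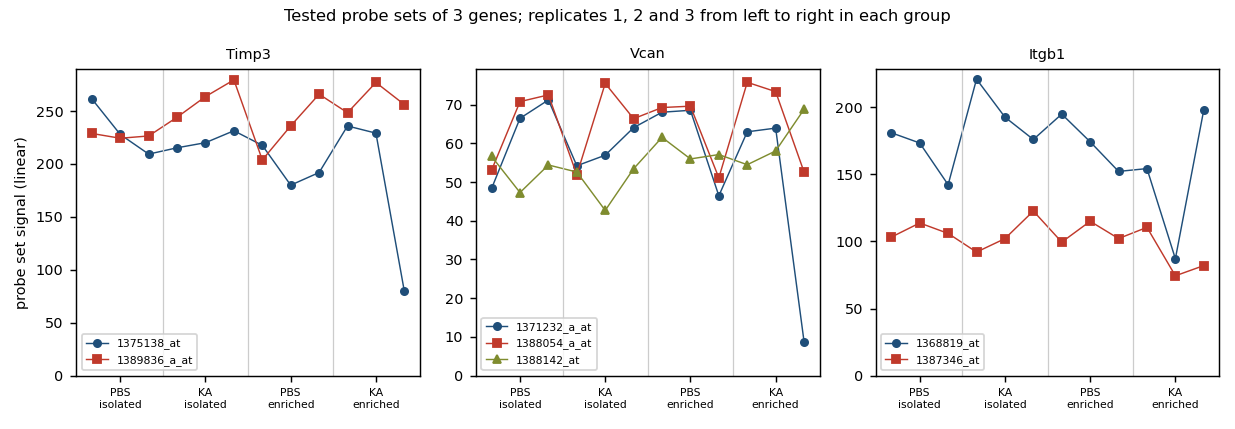
Linear signal of the tested probe sets of Timp3, Vcan and Itgb1 in the 12 pools, ordered by group and replicate, with 1 line for each set. Sets of one gene diverge in single pools, most in KA enriched pool 3 for Timp3 (79.8 against 256) and Vcan (8.77 against 68.8). Both Itgb1 sets read lowest in KA enriched pool 2, at 87.1 for 1368819_at and 74.4 for 1387346_at.

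The 63 remaining probe sets were too dim to be tested: their mean log2 signal lay under that of the dimmest tested set, a signal of about 46.9. They included all 4 of the ADAMTS family (Adamts1, Adamts7, Adamts9 and Adamtsl4) and the matrix genes best known for a response to injury. Spp1, osteopontin, ranged from 20.6 to 42. It read 36.9, 32.3 and 26.3 in PBS isolated and 29.4, 20.6 and 34.1 in KA isolated pools, which overlapped.

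Timp1, the inducible metalloproteinase inhibitor, read 25.3, 43.6 and 31.3 in PBS isolated and 41.9, 43.1 and 42.9 in KA isolated pools, and overlapped because of PBS isolated pool 2. Tnc, tenascin-C, read 44.8, 44 and 41.6 in PBS isolated and 31, 48.1 and 41.2 in KA isolated pools. Mmp9, gelatinase B, had 2 sets. With 1398275_at it read 1.83, 2.15 and 3.56 in PBS isolated and 20.7, 13.6 and 7.52 in KA isolated pools, without overlap but near or below the added constant of 17.1. Its PBS enriched pools, at 6.13, 12.8 and 8.82, also lay above all PBS isolated pools, so the PBS isolated group was the low one, and its KA enriched pools read 2, 3.06 and 18.7. With 1369166_at it read 19.3, 21.9 and 17.2 against 21.4, 23.9 and 23, which overlapped, and its KA enriched pools, at 15.3, 16.2 and 10.6, lay below all other pools.

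**Figure D5:**
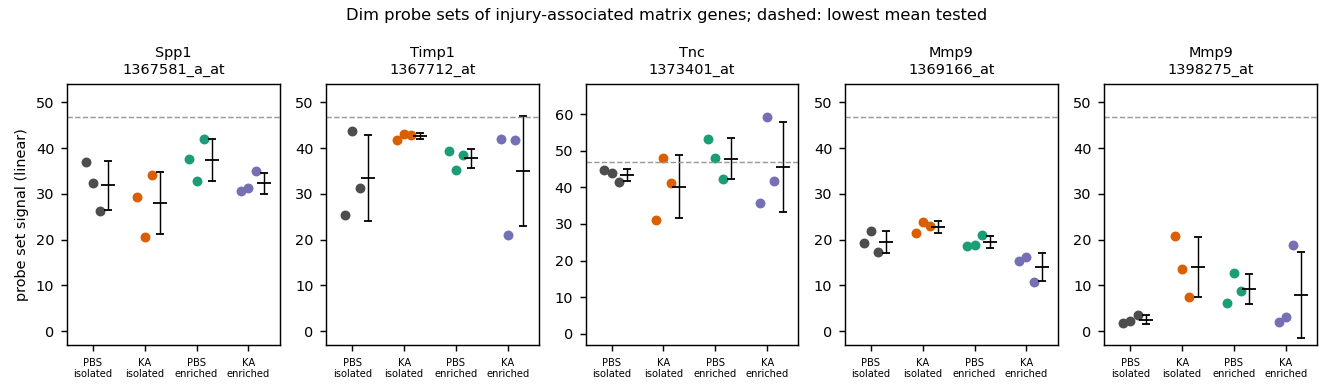
Linear signal of Spp1, Timp1, Tnc and both Mmp9 probe sets in each pool (points) by group, with the mean and SD (n = 3 pools) beside them. The dashed line marks 46.9, the lowest mean signal tested; all 5 sets have a mean under it, and Mmp9 1398275_at is the one in which KA isolated pools all exceed PBS isolated pools.

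The other dim sets belonged to network and other collagens (Col4a4, Col6a2, Col6a3, Col7a1, Col8a1, Col8a2, Col9a1, Col9a2, Col10a1, Col12a1, Col14a1, Col19a1, Col26a1 and another Col18a1 set) and to fibrillar ones (Col2a1, Col5a3, Col11a1, Col27a1 and another Col5a1 set). They also covered the laminin alpha chains, the metalloproteinases Mmp3, Mmp7, Mmp8, Mmp10, Mmp11, Mmp12, Mmp13 and Mmp23 with another Mmp2 set, and the integrins Itga1, Itga2b, Itga8 and Itgb7. Further sets of Itga6, Itga7, Itgb5, Timp3 and Vcan and the sets of Itgb1bp2 and Itgb3bp completed them. Of the 63 dim sets, 2 were wholly higher and 3 wholly lower in KA isolated than in PBS isolated pools, beside 4.36% and 5.78% of all 6346 dim probe sets. Between housings after PBS 3 were wholly higher and 4 wholly lower in enriched rats, beside 6.04% and 3.81%. Over both housings 0 were wholly higher and 1 wholly lower after KA, beside 0% and 0.11%. That one was Col11a1 1384931_at, at signals of 0.299 to 5.51, far under the added constant.

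Other genes that shape or bind the matrix were read from a list of 83 genes outside the symbol rule, of which 48 were tested. For KA in isolated rats 24 of 48 were higher and 0 passed after adjustment. At an unadjusted limma p under 0.05, 1 of 48 was higher and 0 lower, beside 2.01% and 2.3% of all tested probe sets. That 1 was Matn2, a matrilin filament protein. Matn2 read 104, 111 and 89.2 in PBS isolated and 118, 119 and 126 in KA isolated pools, without overlap. Its KA enriched pools, at 107, 98.9 and 89.1, lay below the KA isolated ones, a log2 difference of -0.26 (limma unadjusted p = 0.014, adjusted p = 0.631). In enriched rats 20 of 48 were higher after KA. At an unadjusted limma p under 0.05 there were 1 higher and 1 lower, beside 2.74% and 2.24% of all tested probe sets. Furin, a protease that activates membrane-type metalloproteinases, was higher by 0.26 (limma unadjusted p = 0.025, adjusted p = 0.933). Ddr1, a collagen receptor, was lower by a log2 difference of -0.19 (limma unadjusted p = 0.040, adjusted p = 0.933). The median differences of this list, 0.0043 and -0.02, lay as near to 0 as those of the members.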

How the data were processed

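Each of the 12 samples has 1 array, and its deposited values are linear probe set intensity; the sources used here do not say how probes were summarised. Every array had a mean of 150 after leaving out the lowest and highest 2%, so the authors' deposited intensity was kept unscaled. Groups came from the treatment text and replicate numbers from the titles. The 57 array controls were left out. Values were taken as log2(signal + 17.1), the constant being the 20th percentile of the table, which understates folds of dim genes. The 60% of 15866 probe sets with the highest mean were tested, 9520 in all, with limma 3.58.1 in R 4.3.3 (1 mean per group, 12 samples, 13.1 degrees of freedom, Benjamini-Hochberg adjustment over 9520, threshold 0.05). The number of arrays limits the precision.

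Genes were named from the array's annotation: 12789 probe sets had 1 symbol, 312 several and 2771 none, and all 113 members matched RefSeq by Entrez ID. The text gives, by rule, the 3 members with the lowest p in each direction of each comparison, and the other members by range. The members and lists were chosen with earlier results of these data known. Lists of markers for oligodendrocytes and hippocampal neurons were also read: with limma 0 genes of either passed in any comparison after adjustment, and at most 2 at an unadjusted p under 0.05. The fit was tested on simulated data. Alternatives covered the added constant, the filter, the scaling, the samples in the fit, array weights, a replicate block and each sample left out. The sources used here do not say what the replicate numbers stand for, and the main fit took the samples as unpaired. Of 18 same-numbered pairs 1 correlated over 0.1, beside 1 of 36 pairs with other numbers. Such a cut cannot tell whether weak pairing was present.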

Additional observations from a re-analysis of the deposited data

Results flagged for a closer look

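Col19a1, a collagen of basement membrane zones, had opposite differences between housings after PBS and after KA. Its probe set 1376956_at read 49.3, 48.2 and 61.5 in PBS isolated and 45.8, 33.9 and 39.1 in PBS enriched pools, all lower in enriched rats, with a mean difference of -13.4. After KA it read 40.1, 32.5 and 26.8 in isolated and 46, 43.6 and 46.4 in enriched pools, all higher, with a mean difference of 12.2. The differences lay 25.6 signal units apart. The difference between them was not tested, because this probe set was too dim to enter the fit. Col19a1 was singled out among the members for this pattern. How many probe sets on the whole array had such opposite differences without overlap was not counted. Without that background share, the pattern cannot be told apart from what such a search finds by chance.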

How the results depend on the processing

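Under all alternatives run, 12 with a pool left out and 9 others, 0 matrix, protease or integrin probe sets passed in any of the 8 tests, and the 42 named differences kept their direction and stayed above the threshold, with a lowest adjusted limma p of 0.371. With 1 pool left out, the members' median log2 difference ran from -0.036 to 0.046 for KA in isolated rats, from -0.023 to 0.057 for KA in enriched rats and from -0.066 to 0.023 for the interaction; the lowest values came without KA isolated pool 3, KA enriched pool 3 and PBS enriched pool 1. Keeping 40% of the probe sets gave a median of 0.062 for KA in enriched rats. With the replicate block, no call among the members changed, and the median for KA in isolated rats was 0.01. What the replicate numbers stand for is not stated (same-numbered pools correlated at -0.072 to 0.2). Over all probe sets, the number passing for KA in isolated rats was 1, or 5 in a fit limited to its 2 groups; for housing after PBS it was 1, or 2 when 40% of the probe sets were kept, and for housing over both treatments it was 2, or 1 with the replicate block. Signals near background limit the 63 dim probe sets.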
